A study of Mus musculus with 6 samples.

Results

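The epidermal growth factor (EGF) family ligands Areg, Ereg, Hbegf, Tgfa, Btc and Epgn, the ErbB receptors Egfr, Erbb2 and Erbb3, and the leucine-rich repeat gene Lrig3 were followed in mouse intestinal crypt stem cells by RNA sequencing. These 10 genes were taken by their symbols from 28752 genes in the deposited table, and 9 of them passed the filter on low counts and were tested. The vector group (n = 3) and the circEZH2_005 group (n = 3) were both titled intestinal crypt stem cells. Both were wild-type and grown from Lgr5+ intestinal stem cells (ISCs) of Lgr5-GFP reporter mice, cultured in IntestiCult medium as organoids. By the study's methods, GFP+ cells were selected by fluorescence-activated cell sorting before culture. The circEZH2_005 group overexpressed this circular RNA from an adenovirus. All 6 samples were infected for 72 h and then exposed to hypoxia/reoxygenation (H/R), with hypoxia of 4 h in 2% O2, 5% CO2 and 93% N2. Normoxic cells were not analysed here, so each difference is one under H/R. The labels give neither the age nor the sex of the mice, while the study states that it used male animals only. The labels also do not say whether the samples came from separate animals or cultures, so p-values measure only the spread between these samples.

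ErbB receptors are tyrosine kinases at the cell surface that pair with each other when a ligand binds, and they pass the signal to the Ras-MAPK and PI3K-Akt pathways. Their ligands are made as membrane-anchored precursors that ADAM proteases release. In the intestinal crypt this pathway is known for driving the division of stem and transit-amplifying cells, for repair after injury, and for being restrained by inhibitors such as Lrig1. The intestine has several sources of ligand, including Paneth cells, enterocytes and stromal and immune cells.

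Library totals were between 71506487 and 79919893 counts, at which 3 counts, taken as the floor of detection, correspond to between 0.0377 and 0.0419 CPM, that is, TMM-scaled reads relative to the library total. Such floors cover counting error only. With this scaling, 493 genes were higher and 181 lower in circEZH2_005 samples among 18348 genes tested with edgeR's quasi-likelihood test at a Benjamini-Hochberg adjusted p under 0.05. Vector sample 2 stood apart from its group. Its correlation of log2 CPM across genes with the circEZH2_005 samples was 0.965 to 0.971, compared with 0.951 to 0.964 for vector samples 1 and 3, and results that turn on it are given with and without it. Ezh2, the gene from which the circular RNA is made, had a log2 fold change (log2FC) of -0.13 (standard error, SE, 0.10, edgeR adjusted p = 0.511). The deposited table lists genes, and circEZH2_005 itself was not measured in it. Epithelial genes were at high levels in every sample, with Krt8, a keratin of simple epithelia, at 2081 to 3398 CPM.

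Areg encodes amphiregulin, a ligand of Egfr that is produced by epithelium and by immune cells during tissue repair. It lies on chromosome 5 from 91139599 to 91148432 on the plus strand (GRCm38), and no other annotated gene overlaps it. Areg had the largest fold change of the 9 members tested. The sequences at its start and in its 3′ untranslated region are shown because both regions carry short elements that are uncommon among genes. In the RefSeq promoter table (GRCm38.p6, 250 bases before to 50 after each start), the Areg promoter held the cAMP response element TGACGTCA, 61 to 54 bases before the start, and a TATA box, TATAAA, 31 to 26 bases before it. The 3′ untranslated region of Areg-201 in GENCODE M21 is 253 nucleotides long and holds 4 copies of AUUUA, an element known from short-lived mRNAs. Capitals mark these elements, with ATTTA standing for AUUUA, and all 3 runs are read on the plus strand.
Areg cAMP response element, chr5:91139527-91139556: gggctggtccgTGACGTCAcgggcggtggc
Areg TATA box, chr5:91139556-91139585: ctccagcgggtcTATAAAagcagcaggtgc
Areg AUUUA run, chr5:91148369-91148398: ataATTTATTTAatATTTAagtgttATTTA
The density of AUUUA in Areg was 15.8 per kilobase, at percentile 99.8 of 19486 genes with a region of at least 100 nucleotides, whose median was 1.32 per kilobase. The element TGACGTCA occurred in 1.79% of 32851 promoters and TATAAA in 13.6%, when both strands were searched. A match of letters is a description and not a binding site.

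Areg rose in circEZH2_005 samples. Its level was 2.82, 6.20 and 3.56 CPM in vector samples 1 to 3, from 204, 463 and 279 counts. It was 14.4, 33.3 and 26.9 CPM in circEZH2_005 samples 1 to 3, from 1147, 2479 and 1927 counts. The groups did not overlap, and the lowest circEZH2_005 sample was above the highest vector sample, which was vector sample 2. Means ± SD were 4.19 ± 1.78 CPM for the vector group and 24.9 ± 9.60 CPM for circEZH2_005 (n = 3 each), a 5.93-fold difference. This is a log2FC of 2.57 (SE 0.39, 95% interval 1.67 to 3.47, edgeR adjusted p = 0.0235). The two-sided exact permutation test gave p = 0.1, the smallest value that 3 samples against 3 allow. Without vector sample 2 the log2FC of Areg was 2.96 (edgeR adjusted p = 0.00610). The adjusted p of Areg lost the threshold when circEZH2_005 sample 2, circEZH2_005 sample 3, vector sample 1 or vector sample 3 was left out, at 0.0903, 0.0602, 0.104 and 0.124 by edgeR, with log2 fold changes of 2.30 to 2.51. Leukocyte markers were also higher in circEZH2_005 samples. The summed level of 14 leukocyte markers was 82.3, 262 and 105 CPM in the vector samples (1 to 3), compared with 660, 495 and 352 CPM in the circEZH2_005 samples (1 to 3). Vector sample 2 was the highest vector sample for both, whereas circEZH2_005 sample 1 had the most leukocyte RNA and the least Areg of its group. The part of leukocyte RNA in the Areg difference was not tested. The study's methods describe a sort for Lgr5-GFP before culture, and each of the 14 markers had counts in every sample. In such bulk samples, more cells of a type and more RNA per cell cannot be told apart.

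Ereg, which encodes epiregulin, a ligand of Egfr and Erbb4, is the neighbour of Areg, from 91074622 to 91093646 on the plus strand of chromosome 5. Its level was 3.01, 2.32 and 3.08 CPM in the vector samples (1 to 3), compared with 5.31, 9.81 and 5.53 CPM in the circEZH2_005 samples (1 to 3). The groups did not overlap, and circEZH2_005 sample 2 was the highest, as it was for Areg. Ereg was 2.45-fold higher, with a log2FC of 1.30 (SE 0.28, 95% interval 0.64 to 1.95). The adjusted p of Ereg was 0.0509 by edgeR, just above the threshold, with an unadjusted p of 0.00193, and the exact permutation p was 0.1. Ereg passed in 4 of 15 alternative fits, including DESeq2 (adjusted p = 0.000343), and without vector sample 2 its log2FC was 1.18 (edgeR adjusted p = 0.0706). The 3′ untranslated region of Ereg-201 is 3501 nucleotides long and holds 9 copies of AUUUA, or 2.57 per kilobase. Its densest stretch is shown beside that of Areg for comparison, plus strand, with the copies in capitals.
Ereg AUUUA stretch, chr5:91090915-91090944: tttagagtATTTAtttttatagggaATTTA
The antisense gene Gm19610 overlaps the first bases of Ereg, and whether reads were counted by strand is not stated. Gm19610 had at most 11 counts in any sample, against 730 for Ereg.

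Epgn, Ereg, Areg and Btc form a cluster of 375531 bases on chromosome 5, in which the table lists Gm19610 as the only other gene. Areg begins 45952 bases after Ereg ends, and Btc lies 208828 bases beyond Areg. Along this cluster the log2 fold changes were 1.30 for Ereg, 2.57 for Areg and 0.19 for Btc. Epgn, which encodes epigen, had 12 and 10 counts in vector samples 1 and 2 and 0 counts in vector sample 3 and in every circEZH2_005 sample. Epgn did not pass the filter on low counts, and a count of 0 allows up to 3 counts. It was kept in 5 alternative fits and called in 0 of them (edgeR adjusted p 0.194 to 0.349).

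Btc encodes betacellulin, a ligand of Egfr and Erbb4, and lies on the minus strand from 91357261 to 91402994. Btc was at 4.94, 6.17 and 6.18 CPM with the vector and at 8.38, 5.77 and 5.65 CPM with circEZH2_005. The groups overlapped, and only circEZH2_005 sample 1 was above the vector samples. For Btc the log2FC was 0.19 (SE 0.21, 95% interval -0.29 to 0.67, edgeR adjusted p = 0.626), and without circEZH2_005 sample 1 it was -0.02. This sample was also the highest in leukocyte and mesenchymal markers, and their part in the Btc level was not tested.

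Hbegf encodes heparin-binding EGF-like growth factor, an early gene of epithelial wounds, and lies on the minus strand of chromosome 18. Hbegf was at 11.1, 7.08 and 12.3 CPM with the vector and at 13.0, 20.5 and 20.2 CPM with circEZH2_005. The groups did not overlap, but circEZH2_005 sample 1 was close to vector sample 3. For Hbegf the log2FC was 0.82 (SE 0.25, 95% interval 0.23 to 1.40, edgeR adjusted p = 0.105). DESeq2 called Hbegf (adjusted p = 0.0144) and the other 14 alternative fits did not. Without vector sample 2, the lowest, the log2 fold change was 0.61.

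Tgfa encodes transforming growth factor alpha, an Egfr ligand of the intestinal epithelium, and lies on chromosome 6 from 86195223 to 86275719 on the plus strand. The antisense gene Gm43917 overlaps it. Tgfa was at 27.1, 24.1 and 25.4 CPM with the vector and at 25.8, 31.8 and 29.4 CPM with circEZH2_005. The groups overlapped through circEZH2_005 sample 1, and the log2 fold change was 0.18 (SE 0.11, 95% interval -0.06 to 0.43, edgeR adjusted p = 0.346).

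**Figure D1:**
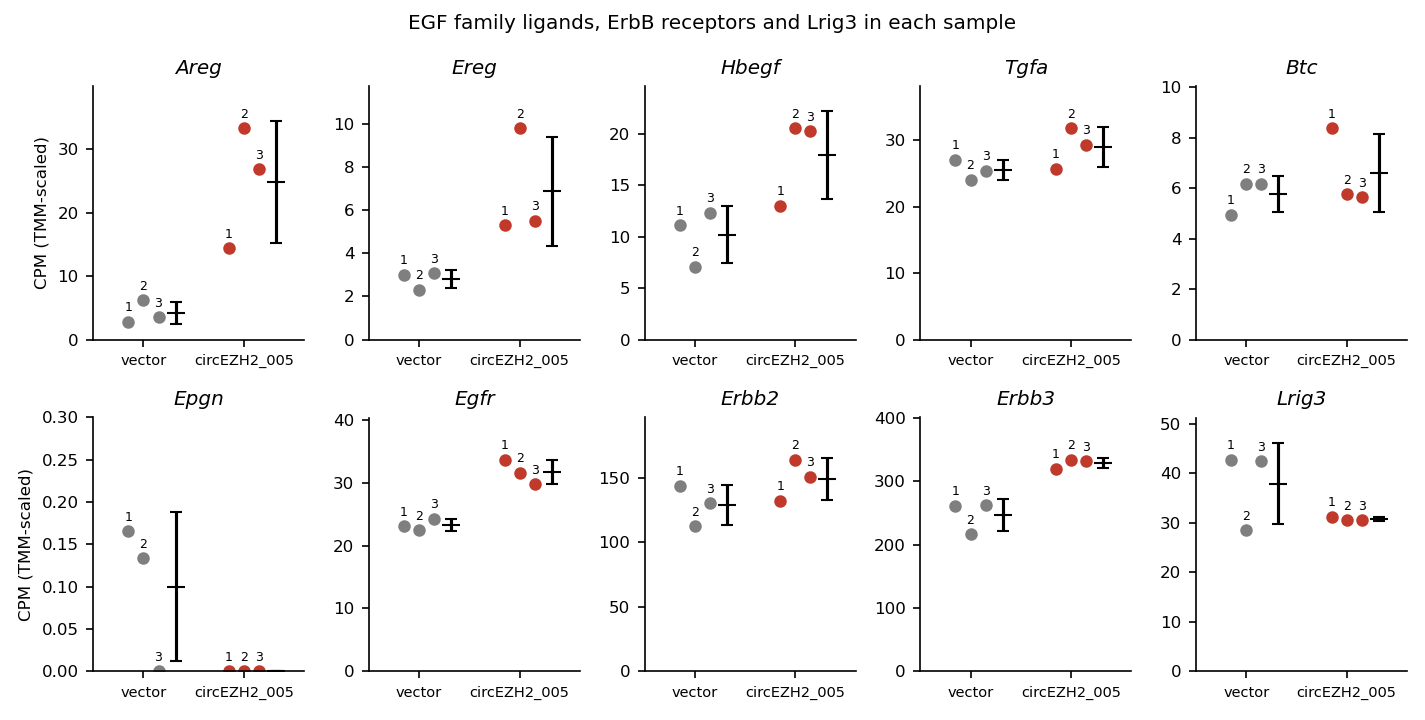
Level of each of the 10 genes in CPM (TMM-scaled, linear axes that start at 0) in vector samples (grey) and circEZH2_005 samples (red), numbered by replicate, with the mean and SD of 3 samples in black. Areg, Ereg, Hbegf, Egfr and Erbb3 have no overlap between the groups, and vector sample 2 is the lowest of all samples for Ereg, Hbegf, Tgfa, Egfr, Erbb2, Erbb3 and Lrig3.

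Egfr encodes the receptor that amphiregulin, transforming growth factor alpha, betacellulin, epigen and EGF bind, and it lies on chromosome 11 from 16752203 to 16918158 on the plus strand. Egfr rose by a small amount. It was at 23.0, 22.4 and 24.3 CPM in the vector samples (1 to 3), compared with 33.7, 31.6 and 29.8 CPM in the circEZH2_005 samples (1 to 3). The groups were well apart, with an SD of 0.947 CPM over the vector samples and 1.94 CPM over the circEZH2_005 samples (n = 3 each). Egfr was 1.36-fold higher, with a log2FC of 0.45 (SE 0.09, 95% interval 0.24 to 0.65), an adjusted p of 0.0426 by edgeR and an exact permutation p of 0.1. This call held in 3 of 15 alternative fits. It was lost whichever sample was left out, with log2 fold changes of 0.40 to 0.49 and adjusted p of 0.0554 to 0.166 by edgeR, the lowest p being the one without vector sample 2. The gene Egfros lies on the other strand within the span of Egfr. The promoter window of Egfr held no TATAAA and held a GC box, GGGCGG, on the minus strand 9 to 4 bases before the start, an element in 35.7% of promoters. It is shown in contrast to Areg, in the plus-strand reading, with the GC box in capitals.
Egfr GC box, chr11:16752182-16752211: tccctcctcctcCCGCCCagcctcccccag

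Erbb3 encodes the receptor that binds neuregulins and has little kinase activity of its own, and it lies on chromosome 10 from 128567523 to 128589652 on the minus strand. Erbb3 was at 261, 217 and 262 CPM with the vector and at 320, 334 and 332 CPM with circEZH2_005. The groups did not overlap, and the circEZH2_005 samples were close to each other (SD 7.69 CPM, n = 3). Its log2FC was 0.41 (SE 0.10, 95% interval 0.19 to 0.64), and its adjusted p of 0.0595 by edgeR missed the threshold. Erbb3 passed with DESeq2 (adjusted p = 0.00280) and with a filter of at least 1 CPM in 3 samples (edgeR adjusted p = 0.0477), and without vector sample 2 its log2FC was 0.33.

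Erbb2 encodes the receptor that has no known ligand and pairs with the others, and it lies on chromosome 11 from 98412470 to 98437716 on the plus strand. Erbb2 was at 144, 112 and 130 CPM with the vector and at 132, 164 and 151 CPM with circEZH2_005. The groups overlapped, with circEZH2_005 sample 1 below vector sample 1, and the log2 fold change was 0.21 (SE 0.12, 95% interval -0.07 to 0.49, edgeR adjusted p = 0.342). Mien1 overlaps Erbb2 on the other strand, and a microRNA gene, Mir6917, lies within Erbb3 on the same strand.

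Lrig3 encodes a transmembrane protein related to Lrig1, and it lies on chromosome 10 from 125966168 to 126015359 on the plus strand. Lrig3 was the only member tested whose log2 fold change was below 0. It was at 42.7, 28.5 and 42.5 CPM in the vector samples (1 to 3), compared with 31.2, 30.5 and 30.5 CPM in the circEZH2_005 samples (1 to 3). Vector samples 1 and 3 were above every circEZH2_005 sample and vector sample 2 below them all. Over all samples its log2FC was -0.30 (SE 0.15, 95% interval -0.66 to 0.06, edgeR adjusted p = 0.287). Without vector sample 2 it was -0.47, and the adjusted p of Lrig3 passed the threshold at 0.0182 by edgeR. The direction of Lrig3 was therefore the same with and without this library, and the call turned on it.

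Of the 9 members tested, 2 were called higher, Areg and Egfr, and 0 were called lower by edgeR, where 2.69% of all genes tested were called higher and 0.986% lower. At an unadjusted p under 0.05, 5 members were higher and 0 lower, beside 14.0% and 9.72% of all genes tested. DESeq2 called 5 members higher, and 8.96% of the tested set. With a fold change over 2 and an unadjusted p under 0.05, the rule of fold change used in the study, 2 members were higher, Areg and Ereg, and 6.22% of all genes. The groups did not overlap and were higher with circEZH2_005 in 5 members, Areg, Ereg, Hbegf, Egfr and Erbb3, and lower in 0, compared with 16.4% and 14.2% of all genes tested. The median log2 fold change was 0.82 over the 5 ligands tested, 0.41 over the 3 receptors and 0.41 over all 9 members, while it was 0 over all genes tested. Epgn took no part in these counts. The members were chosen with results of these samples known, and no test was made over the list.

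Levels of different genes were compared by the deposited FPKM, fragments per kilobase of transcript, scaled to library size. In vector samples the order was Erbb3 (37.9 ± 3.61 FPKM, SD, n = 3), Erbb2 (22.8 ± 2.49 FPKM), then Lrig3, Tgfa, Areg, Hbegf and Egfr with means between 1.90 and 4.19 FPKM, then Btc, Ereg and Epgn. Among Lrig3, Tgfa, Areg, Hbegf and Egfr, each overlapped in range with the next in order, and the other neighbours were apart. In circEZH2_005 samples Areg was the third, at 17.6 ± 5.99 FPKM, behind Erbb3 (47.5 ± 1.75 FPKM) and Erbb2 (24.8 ± 1.33 FPKM) and apart from Tgfa (3.87 ± 0.198 FPKM). Lrig3, Hbegf and Egfr followed, each overlapping with the next, then Ereg and Btc, which overlapped, and Epgn at 0.

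The make-up of the ligands differed between the groups. Summed over the 6 ligands, the level was 9.73, 11.5 and 10.7 FPKM in the vector samples (1 to 3), compared with 20.2, 33.5 and 28.3 FPKM in the circEZH2_005 samples (1 to 3), a ratio of means of 2.57. Without Areg the sum was 7.43 ± 0.644 FPKM with the vector and 9.78 ± 0.795 FPKM with circEZH2_005 (SD, n = 3), a ratio of 1.32. Areg therefore accounted for most of the difference in the sum. Areg made up 21.6%, 41.6% and 25.5% of the ligand sum in the vector samples (1 to 3), compared with 54.8%, 68.2% and 66.2% in the circEZH2_005 samples (1 to 3). Tgfa made up the largest share in vector samples 1 and 3, and Areg in vector sample 2 and in all circEZH2_005 samples. The receptors kept nearly the same proportions. Their sum was 62.6 ± 5.94 FPKM with the vector and 74.8 ± 1.21 FPKM with circEZH2_005 (SD, n = 3), a ratio of 1.19, and Erbb3 made up 60.5% and 63.6% of it, Erbb2 36.4% and 33.2%, and Egfr 3.05% and 3.26%. Receptor FPKM per ligand FPKM was 5.95 ± 1.00 with the vector and 2.86 ± 0.799 with circEZH2_005. These sums are descriptions of mRNA level, with no test.

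**Figure D2:**
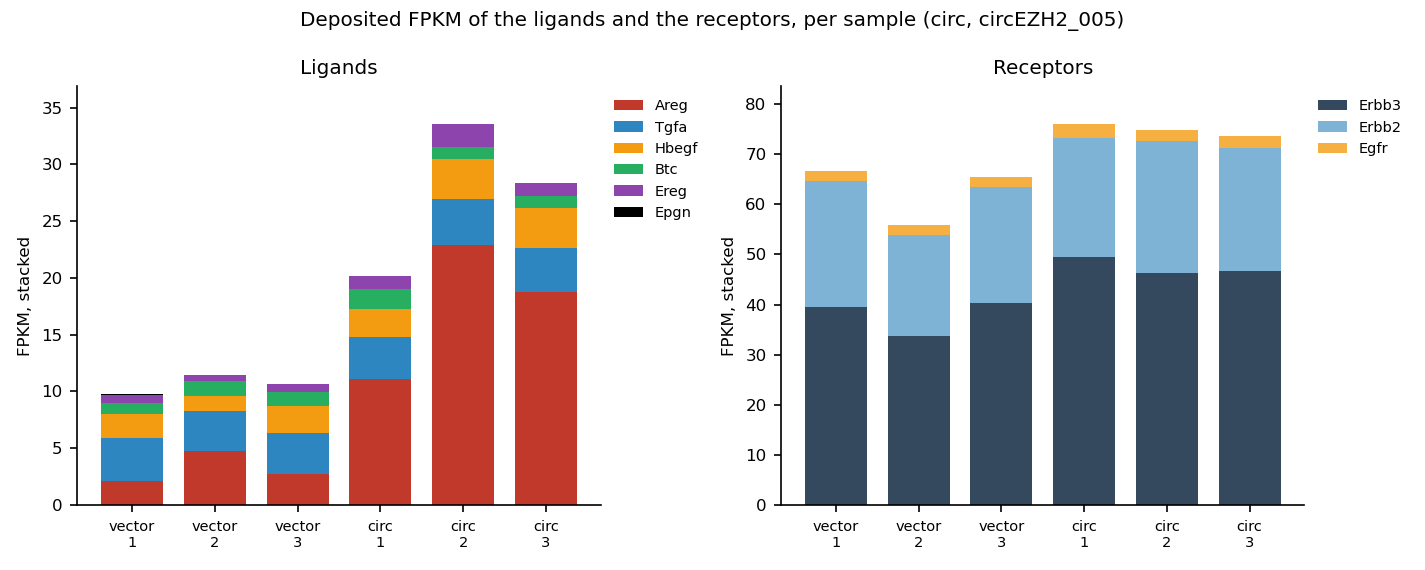
Deposited FPKM of the 6 ligands (left) and the 3 receptors (right) in each sample, stacked on linear axes that start at 0. Areg fills 54.8% to 68.2% of the ligand bar in the circEZH2_005 samples and 21.6% to 41.6% in the vector samples, while the receptor bars keep similar proportions.

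Among 7 members matched in the RefSeq promoter table, few promoter elements were shared. Ereg, Hbegf and Erbb3 were not matched. The cAMP response element TGACGTCA was in 1 of the 7, Areg, and TATAAA in 2, Areg and Epgn. The GC box GGGCGG was in 4, Areg, Egfr, Lrig3 and Tgfa, and the TEAD element GGAATG in 2, Erbb2 and Lrig3, compared with 14.7% of all promoters. The AP-1 element TGANTCA was in 0 of the 7 and in 7.81% of all promoters. Both strands were searched and none of these matches overlapped another. The 3′ untranslated regions held AUUUA in 8 of the 10 members, with 6.83 per kilobase in Lrig3 (percentile 96.4), 2.75 in Hbegf, 2.17 in Erbb3, 1.93 in Btc, 1.90 in Egfr and 1.06 in Tgfa, and with 0 copies in Epgn and Erbb2. Of the 19486 genes, 34.0% held 0 copies. Their median region was 912.5 nucleotides long, compared with 6303 in Egfr and 3764 in Tgfa. For hnRNPA1, the RNA-binding protein that the study connects with circEZH2_005, the study proposes a role in mRNA stability through AUUUA-rich sequences. Binding of hnRNPA1 to the members was not tested here. The letters UAGGG, another core bound by hnRNPA1, occurred in the 3′ untranslated region of 45.8% of 19486 genes. It was in 8 of the 10 members, with 4 copies in Egfr, 2 each in Ereg and Btc and 1 each in Hbegf, Tgfa, Epgn, Erbb2 and Erbb3, and with 0 in Areg and Lrig3. These counts do not allow for length. Per kilobase, the 8 members ranged from 0.266 in Tgfa to 0.967 in Btc, with 0.635 in Egfr. The pooled density over the 19486 genes was 0.684 per kilobase, and the members were not tested against it.

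The rest of the pathway was described by 59 further genes in 6 lists, of which 54 were tested. Of these 54, 2 were called higher by edgeR, Dusp6 and Ccnd1, and 0 lower, beside 2.69% and 0.986% of all genes tested. The median log2 fold change of the 54 was 0.12. At an unadjusted p under 0.05, 13 of the 54 were higher and 4 lower, beside 14.0% and 9.72% of all genes tested. Both called genes belonged to the 10 output genes of MAPK signalling, whose median was 0.27. Dusp6 encodes a phosphatase that switches off ERK and is induced by ERK signalling. Dusp6 was at 45.6, 56.2 and 43.3 CPM in the vector samples (1 to 3), compared with 87.2, 133 and 107 CPM in the circEZH2_005 samples (1 to 3). The groups did not overlap, and circEZH2_005 sample 2 was the highest, as for Areg. Dusp6 had a log2FC of 1.18 (SE 0.17, edgeR adjusted p = 0.0214). Ccnd1, which encodes cyclin D1 and promotes entry into S phase, was at 146, 189 and 160 CPM with the vector and at 248, 231 and 250 CPM with circEZH2_005. Its groups did not overlap, with a log2FC of 0.56 (SE 0.11, edgeR adjusted p = 0.0412). Both calls held without vector sample 2, with a log2FC of 1.30 for Dusp6 and 0.67 for Ccnd1. Dusp6 missed the threshold without vector sample 1, vector sample 3, circEZH2_005 sample 2 or circEZH2_005 sample 3 (edgeR adjusted p 0.0571 to 0.111), and Ccnd1 when any sample other than vector sample 2 was left out (edgeR adjusted p 0.0660 to 0.173). Other output genes did not pass, and Spry4, a feedback inhibitor, had the lowest log2 fold change, -0.61 (edgeR adjusted p = 0.323).

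Among 8 genes tested for ligand shedding, 0 were called and the median log2 fold change was 0.02. Adam17, the main sheddase of Areg, had a log2FC of -0.08 (edgeR adjusted p = 0.636), and it is named outside the rule for named genes. Adam19, a metalloprotease, was at 4.18, 14.2 and 5.28 CPM with the vector and at 35.9, 30.8 and 18.4 CPM with circEZH2_005, with no overlap and a log2FC of 1.84 (edgeR adjusted p = 0.0700). The order of the samples for Adam19 was that of the leukocyte markers in both groups, and the part of leukocyte RNA was not tested. Rhbdf1, which brings Adam17 to the cell surface, was the lowest of this list at -0.35.

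Among the 10 inhibitors of the receptors, 0 were called and the median log2 fold change was 0.15. Cblb, a ubiquitin ligase, was the highest at 0.49 (edgeR adjusted p = 0.105) and Socs5 the lowest at -0.58 (edgeR adjusted p = 0.0652). Lrig1, named after its values were seen because it is the relative of Lrig3 that restrains ErbB receptors in crypt stem cells, was at 104, 96.0 and 113 CPM with the vector and at 85.1, 74.7 and 74.0 CPM with circEZH2_005. The groups of Lrig1 did not overlap, with a log2FC of -0.42 (SE 0.10, edgeR adjusted p = 0.0570). In FPKM, Lrig1 was 9.08 ± 0.395 times the level of Egfr with the vector and 4.99 ± 0.172 times with circEZH2_005 (SD, n = 3).

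Among 17 adaptors and Ras-MAPK genes, 0 were called, with a median log2 fold change of 0.14 and a range from -0.15 for Araf to 0.37 for the adaptor Gab2 (edgeR adjusted p = 0.0573). In 8 of these 17 genes the groups did not overlap and were higher with circEZH2_005, where this held for 16.4% of all genes tested. It also held for 4 of 10 MAPK output genes, 2 of 8 for shedding, 2 of 10 inhibitors and 0 of 7 in the PI3K branch. Over the 54 pathway genes tested, 16 were higher and 5 lower without overlap, beside 16.4% and 14.2% of all genes tested. Among 7 genes of the PI3K branch 0 were called and the median log2 fold change was 0.02, with Pik3r2, a regulatory subunit, the highest at 0.12. Of the remaining ligands and the receptor Erbb4, only Egf and Nrg4 passed the filter on low counts. Egf was at 0.551 to 1.48 CPM with a log2FC of 0.03, and Nrg4, a ligand of Erbb4, had -0.88 (edgeR adjusted p = 0.149). Nrg1, Nrg2, Nrg3 and Erbb4 had at most 15 counts in any sample and did not pass the filter, so that Erbb3 was the only receptor of neuregulins above this level.

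**Figure D3:**
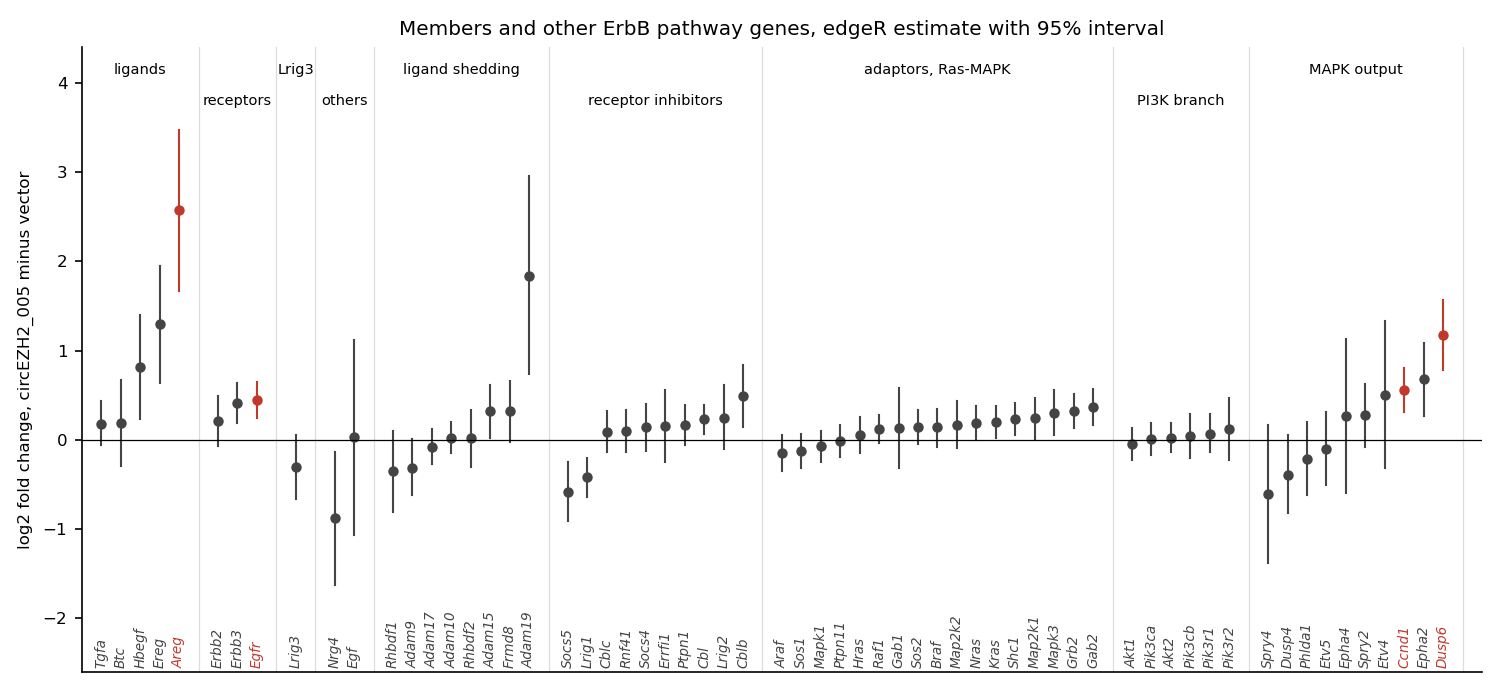
Log2 fold change of the tested genes that are reported, circEZH2_005 minus vector, with the 95% interval of the edgeR fit, by role in the pathway; "others" are the remaining ligands, and red marks an adjusted p under 0.05. Areg (2.57) and Adam19 (1.84) are the highest points, Areg, Egfr, Ccnd1 and Dusp6 are red, and most adaptors and PI3K genes lie close to 0.

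The labelled cell type was set beside its markers, since the ligands come from several cell types. The summed level of 8 crypt stem cell markers was 1704, 2563 and 1789 CPM in the vector samples (1 to 3), compared with 1588, 1182 and 1761 CPM in the circEZH2_005 samples (1 to 3), led by Olfm4 at 1003 to 2314 CPM. The groups overlapped in this sum. By the edgeR test, 3 of the 8, Lgr5, Smoc2 and Rgmb, were called lower, with log2 fold changes of -0.88, -0.81 and -0.58. Of all genes tested, 0.986% were called lower. Without overlap between the groups, 5 of the 8 were lower, beside 14.2% of all genes tested. Lgr5 itself was at 7.70 to 18.3 CPM. Axin2 was the 1 gene of the 8 with a log2 fold change above 0, at 0.31 (edgeR adjusted p = 0.219). The sum of 8 epithelial markers was 8327, 7962 and 8305 CPM with the vector and 9585, 11924 and 10464 CPM with circEZH2_005, and Krt8 rose by 0.57 on the log2 scale (edgeR adjusted p = 0.0301). Markers of differentiated cells were abundant, with Sis of enterocytes at 2294 to 5206 CPM, Fcgbp of goblet cells at 2515 to 3692 CPM and Lyz1 of Paneth cells at 946 to 2791 CPM. The Paneth cell sum, of a cell type that supplies Egf, was 3597, 3399 and 5933 CPM with the vector and 2871, 2113 and 3692 CPM with circEZH2_005. Of the 6 Paneth cell markers, 0 had a log2FC above 0 (median -0.6) and 0 were called. Without overlap, 2 of them were lower, beside 14.2% of all genes tested. The goblet cell sum differed by a ratio of 1.14, with Clca1 called higher among its 6 genes (log2FC 0.76, edgeR adjusted p = 0.0433). Of these 6 genes, 5 had a log2FC above 0. Spink4 was below it, at -0.28 (edgeR adjusted p = 0.149), with no overlap between the groups. The enterocyte sum was 14795, 13321 and 12579 CPM with the vector and 13115, 23886 and 18239 CPM with circEZH2_005. These sums overlapped, and 2 of the 8 enterocyte markers were called higher, beside 2.69% of all genes tested. They were the keratin gene Krt20 (log2FC 1.18, edgeR adjusted p = 0.0207) and the apolipoprotein gene Apoa4 (log2FC 0.91, edgeR adjusted p = 0.0279). Of the 8, 6 had a log2FC above 0, whereas Fabp1 was at -0.37 and Sis at -0.29 (edgeR adjusted p = 0.470 and 0.579). circEZH2_005 sample 2 was thus the highest in enterocyte markers, in Areg and in Ereg. It was also the highest in the epithelial sum and in the goblet cell sum (7814 CPM). The enterocyte sum of circEZH2_005 sample 1 lay within the vector range, although its Areg was above every vector sample. The part of the enterocyte share in the levels of Areg and Ereg was not tested.

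Leukocyte RNA was present in every sample. Its most abundant marker, Ptprc, a phosphatase of all leukocytes, was at 22.8 to 78.6 CPM with the vector and at 103 to 185 CPM with circEZH2_005. All 14 leukocyte markers were tested, and 14 of 14 had a log2 fold change above 0, 9 of 14 had no overlap between the groups, and Itgax alone was called by edgeR. Of all genes tested, 16.4% were higher without overlap and 2.69% were called higher. None of the 14 was at 0 in a sample. Mesenchymal markers summed to 8.95 to 10.2 CPM with the vector and to 4.90 to 13.9 CPM with circEZH2_005, led by Pdgfrb at 1.65 to 3.56 CPM. Endothelial markers summed to 1.59 to 2.68 CPM and 4.68 to 6.93 CPM, led by Pecam1, which was called higher by edgeR. Pecam1 is also known from leukocytes.

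**Figure D4:**
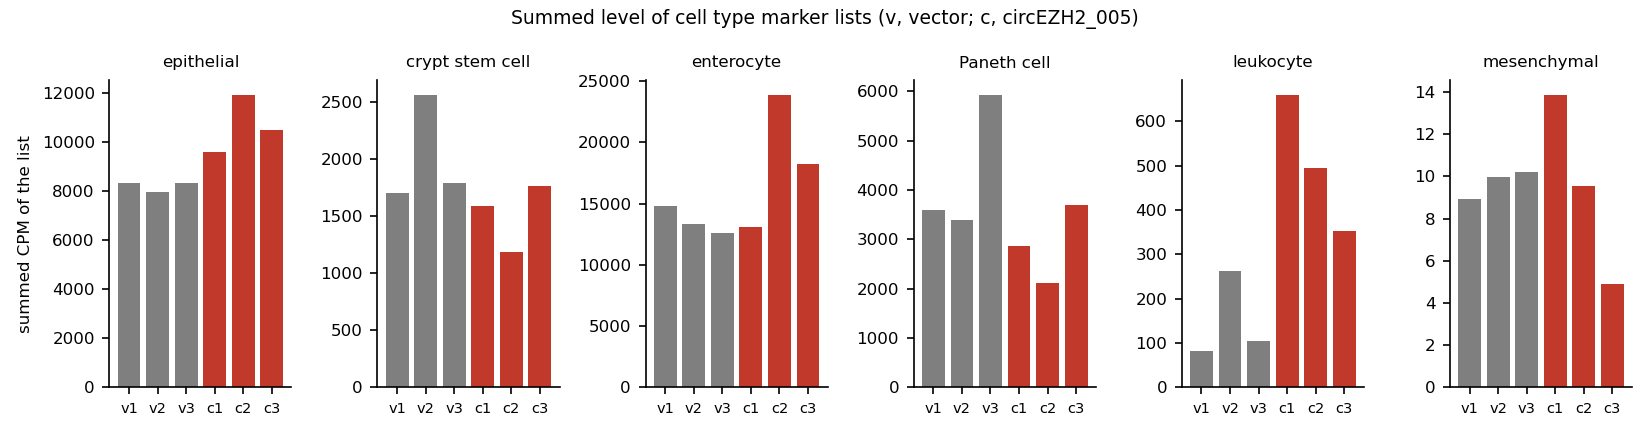
Summed CPM of cell type marker lists in each sample, with vector samples (v) in grey and circEZH2_005 samples (c) in red and a separate linear axis from 0 for each list. Leukocyte markers sum to 82.3 to 262 CPM in the vector samples and to 352 to 660 CPM in the circEZH2_005 samples, and mesenchymal markers to at most 13.9 CPM in any sample.

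Across the 6 samples, the genes whose log2 CPM was most like that of Areg, among 13349 genes averaging at least 1 CPM, were Tlnrd1 (Pearson's r = 0.998), Crkl (0.998) and Fam78a (0.997). For Egfr they were Herpud2 (0.997), Plcg1 (0.996) and Rassf1 (0.991). Crkl encodes an adaptor and Plcg1 a phospholipase that act below receptor tyrosine kinases. With 6 points that share 2 groups, and the best of 13349 genes taken, such values are descriptions. The likeness was not one of size, since Crkl had a log2FC of 0.17 (edgeR adjusted p = 0.189) and Plcg1 of 0.34 (edgeR adjusted p = 0.0680), beside 2.57 for Areg and 0.45 for Egfr.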

How the data were processed

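Oligo(dT)-selected RNA of 6 samples, 3 per group by their titles, was sequenced. The authors deposited a raw read count for every gene and sample, and an FPKM value, normalized for transcript length and library size. Per the labels, the submitters' processing notes list cutadapt 1.9, HISAT2 2.0.4, StringTie 1.3.4d, DESeq2 and the build mm10. The program that counted reads and its strand setting are not given in the sources used here. The control columns are named as a negative control and were taken as the vector samples of the same number. Of the columns of sample values, 0 were left unused. The identifiers matched GENCODE M21 for 28678 of 28752 genes, 28527 with the same start.

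Counts were filtered with filterByExpr, scaled with TMM and tested in edgeR 4.0.16 (R 4.3.3) by its quasi-likelihood test, with no covariate. Adjusted p-values are Benjamini-Hochberg over the 18348 genes tested, called under 0.05, and each standard error is the log2 fold change over the root of the F statistic. The fits were tested on simulated data. Exact permutation tests of log2 CPM were two-sided (scipy 1.17.1). Alternatives used DESeq2 1.42.0, limma 3.58.1 on log2(FPKM + 1) or log2(FPKM + 0.1) (genes averaging at least 0.5 FPKM), other scalings and filters, a replicate block, and each sample left out.

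The members and lists were chosen with earlier results of these data known. The genes named were the 10 members, Ezh2, the called genes and the extremes of each pathway list, the most abundant marker of each list, and the 3 genes most like each called member. Lgr5, Smoc2, Rgmb, Axin2, Krt20, Apoa4, Fabp1, Clca1, Spink4, Itgax, Lrig1, Adam17, Mien1, Mir6917 and the antisense genes were named after their values were seen. Results for a few genes of these lists are not reported here. Sequences are from RefSeq and GENCODE M21 (GRCm38), read by symbol, with 7 of 10 promoters matched. Depth was at least 71506487 counts in every sample, and the precision also depends on the spread over 3 samples per group.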

Additional observations from a re-analysis of the deposited data

How the results depend on the processing

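Over all genes, 493 were higher and 181 lower with the main test. DESeq2 gave 1644 and 846, limma on log2(FPKM + 0.1) 323 and 319, no filter 132 and 37, and the replicate block 241 and 36. Limma on log2(FPKM + 1) gave 364 lower, a filter of at least 1 CPM in 3 samples gave 289 lower, and the rule of a fold change over 2 with an unadjusted p under 0.05 gave 1142 higher. Leaving out 1 sample gave 26 to 1098 higher and 2 to 334 lower. Of the members, 2 were called higher with the main test, 5 by DESeq2, 1 by each limma fit, 0 without a filter, 1 with the replicate block, 4 with the stricter filter and 1 with upper-quartile scaling. Leaving out 1 sample gave 0 to 2 members higher and 0 to 1 lower, the latter being Lrig3 without vector sample 2. The pathway lists had 2 higher and 0 lower, against 8 and 2 with DESeq2, 1 higher with the library total alone, with each limma fit, without a filter and with the replicate block, 1 lower with the stricter filter, and 0 to 3 higher and 0 to 3 lower with 1 sample left out. The cause was not tested, beyond the fewer samples or other genes in each fit. Deviations of same-numbered samples from their group means had correlations of -0.136, -0.0234 and 0.0363 across genes, so the numbers were not taken as pairs. The replicate block called Areg alone among the members (log2 fold change 2.57, edgeR adjusted p = 0.0112), and Egfr no longer passed (edgeR adjusted p = 0.116).

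Areg kept its direction in 15 of 15 alternatives, with log2 fold changes of 2.14 to 2.96, and passed in 10, with adjusted p between 2.33e-11 with DESeq2 and 0.124 without vector sample 3. Egfr had 0.24 to 0.49 and passed in 3. Only Btc reversed, to -0.02 without circEZH2_005 sample 1, within a range of -0.02 to 0.29 with 1 sample left out. TPM in place of FPKM moved the ratio of the summed receptors from 1.19 to 1.25. This was more than the SD of the circEZH2_005 samples over the vector mean, 0.0194, which leaves out the spread of the vector samples. That spread was larger, with an SD of 5.94 FPKM on a mean of 62.6 FPKM. The ratio of the summed ligands, with or without Areg, moved by less than its SD of the circEZH2_005 samples. Library totals in place of TMM also moved the ratios of the marker sums by less than this SD. The alternatives moved the median of all genes by at most 0.094 (log2), downward with limma on log2(FPKM + 0.1). Epgn, Nrg1, Nrg2, Nrg3 and Erbb4 did not pass the main filter on low counts.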
